A study of Homo sapiens with 9 samples.

Results

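Transcripts of 10 genes of the chemokine system were followed through the 9 RNAseq libraries of this series. They were the receptors ACKR3 and CXCR4, their shared ligand CXCL12, the neutrophil-attracting ligands CXCL1, CXCL2, CXCL3, CXCL5 and CXCL8, and the ligands CXCL16 and CCL2. The genes were taken by symbol from a table of read counts for 58735 genes, and all 10 were present in it. The list was selected on results of these data, namely the read counts of the genes and their fold changes between the same groups, so their levels and fold changes are given as descriptions.

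The libraries came from 786-0 cells, an established clear cell renal cell carcinoma (ccRCC) line in which VHL is defective and HIF1α is inactivated, so that HIF2α is the HIFα subunit that accumulates at normal oxygen. The study asked how blocking HIF2α with the antagonist PT2385, which keeps HIF2α from pairing with HIF1β, alters gene expression. WT denotes parental 786-0 cells kept at 21% oxygen for 48 h without the compound. PT2385 denotes the same parental cells with 10 μM PT2385 for 48 h, and KO denotes 786-0 cells with a hif2a knockout, kept at 21% oxygen for 48 h without the compound. Each group had 3 replicates, and all 3 groups share the VHL and HIF1α defects of the line. The sources used here do not say how the knockout was made, whether KO is 1 clone, whether WT received the solvent of the compound, or whether replicates were separate cultures. If they were not, the standard errors and p-values below measure technical spread only.

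Between 11881000 and 14730081 reads per library were counted on genes. EPAS1, the gene of HIF2α, checked the labels, with 256 ± 20.6 CPM (counts per 1000000 counts of the library, SD, n = 3) in WT, 238 ± 15.3 CPM in PT2385 and 22.1 ± 2.61 CPM in KO, which is 8.65% of WT. The 9 renal epithelial and ccRCC line markers were all detected, with a summed level between 5750 and 6370 CPM in every group, most of it from VIM (4260 to 4730 CPM on average). Of these 9, 3 rose and 1 fell with PT2385 (2 fell with replicate as a block), and 5 rose and 1 fell in KO against WT. Among all tested genes 3.08% rose and 4.62% fell with PT2385, and 14.7% rose and 15.4% fell in KO. Among the 9, CDH6 rose (log2 fold changes of 1.38 and 1.03) and PAX2 fell (-0.44 and -1.30) in both comparisons. Of 14 leukocyte markers 10 had at most 3 reads in every library, and CD3E, MS4A1, FCGR3A, NKG7 and TYROBP were among those with no read. Their summed level was 1.83 to 2.14 CPM in WT, 1.77 to 2.25 in PT2385 and 1.46 to 1.92 in KO. Of 7 endothelial markers 6 had at most 3 reads in every library, PECAM1, VWF and CLDN5 had none, and the summed level was 0.0839 to 0.167 CPM in WT, 0.0803 to 0.282 in PT2385 and 0.418 to 0.617 in KO. Of 8 fibroblast markers 4 had at most 3 reads in every library, with PDGFRA, DCN and COL1A2 at 0, and the summed level was 8.83 to 10.1 CPM in WT, 10.7 to 13.4 in PT2385 and 6.02 to 8.64 in KO. Of the 3 fibroblast markers tested, none was past the threshold with PT2385, and 1 rose and 2 fell in KO against WT.

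Chemokines are small secreted proteins that guide cells through G protein-coupled receptors. CXCL12 is bound by CXCR4, which signals through Gi proteins and drives cell migration, and by ACKR3, an atypical receptor that recruits β-arrestin, takes CXCL12 up for degradation and so limits the ligand available to CXCR4. In VHL-deficient renal carcinoma CXCR4 is a known HIF target. CXCL1, CXCL2, CXCL3, CXCL5 and CXCL8 act on CXCR1 and CXCR2 of neutrophils, lie together on chromosome 4, and are classical targets of the transcription factor NF-κB. CCL2 attracts monocytes through CCR2, and CXCL16, made as a membrane-bound protein, is the ligand of CXCR6.

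The stretches upstream of the annotated start sites are shown because the neutrophil-attracting ligands share a short element there that is read by NF-κB. RefSeq promoter sequences (GRCh38.p14) were matched for 7 of the 10 genes with 9 start sites, since CXCR4 has 3 of them, and ACKR3, CXCL16 and CCL2 were not matched. Each of the following runs from base -250 to base -51 relative to the start site, read 5′ to 3′ on the strand of the gene, with the NF-κB motif in capitals. None of these bases lies in an annotated exon of its gene.
CXCL1: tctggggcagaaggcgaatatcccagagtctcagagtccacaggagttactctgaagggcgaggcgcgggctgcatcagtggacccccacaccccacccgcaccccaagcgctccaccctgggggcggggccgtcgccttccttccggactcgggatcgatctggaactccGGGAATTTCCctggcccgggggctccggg
CXCL2: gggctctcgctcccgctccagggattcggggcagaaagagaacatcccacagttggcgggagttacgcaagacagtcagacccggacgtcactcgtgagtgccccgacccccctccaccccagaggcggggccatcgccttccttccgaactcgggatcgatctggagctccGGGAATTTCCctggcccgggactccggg
CXCL5: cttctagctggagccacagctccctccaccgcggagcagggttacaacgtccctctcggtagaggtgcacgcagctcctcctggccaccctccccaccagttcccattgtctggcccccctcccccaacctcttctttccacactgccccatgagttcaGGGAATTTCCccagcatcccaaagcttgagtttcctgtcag
CXCL8: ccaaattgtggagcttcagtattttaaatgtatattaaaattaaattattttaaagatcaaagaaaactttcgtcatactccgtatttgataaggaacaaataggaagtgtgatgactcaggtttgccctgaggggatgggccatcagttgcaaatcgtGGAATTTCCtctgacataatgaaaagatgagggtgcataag

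These stretches lie at chr4:73869143-73869342 on the plus strand (CXCL1), chr4:74099246-74099445 on the minus strand (CXCL2), chr4:73998728-73998927 on the minus strand (CXCL5) and chr4:73740319-73740518 on the plus strand (CXCL8). Both strands of the 250 bases upstream of each start site were searched for the κB consensus of GGGA, any base and TTTCC, and for GGAATTTCC. These overlap in GGGAATTTCC, which holds both. GGGAATTTCC begins at base -79 in CXCL1 and in CXCL3, at -78 in CXCL2 and at -91 in CXCL5, while CXCL8 has the shorter GGAATTTCC from base -91. Either motif occurred in 280 of 35116 RefSeq promoters of the same length (0.797%). CXCL8 also holds an AP-1 motif (TGANTCA), found in 6.57% of promoters, from base -137. The upstream bases of CXCL12 and CXCR4 hold no such NF-κB match.

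For CXCR4 the core of a hypoxia response element, ACGTG or GCGTG on either strand, was searched in the same way. It is present in 43.2% of all promoters, so its presence is common. The most upstream of the 3 CXCR4 start sites has it at base -39, within the following 30 bases at chr2:136118172-136118201 on the minus strand, with the core in capitals.
CXCR4: cgccgcgctcggaGCGTGtttttataaaag
Of the other start sites of CXCR4, the most downstream has the core in 2 places, beginning at bases -224 and -64, and the middle start site has none. CXCL5 has it once, beginning at base -183. A match describes the letters of the sequence and says nothing about binding in these cells.

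ACKR3 (ENSG00000144476, chromosome 2, 236567787 to 236582354, plus strand) fell with PT2385 and was not detected in KO. In WT 156, 147 and 145 reads were counted, in PT2385 41, 22 and 37, and in KO 0, 0 and 0. The 3 groups did not overlap, and every PT2385 library lay between all WT and all KO libraries. Among all tested genes the groups did not overlap in 25.9% with PT2385 against WT, 44.0% in KO against WT and 35.1% in KO against PT2385. The level was 12.4 ± 0.582 CPM in WT and 2.51 ± 0.832 CPM in PT2385 (SD, n = 3), so that 20.2% of the WT level remained with the antagonist, a log2 fold change of -2.31 (SE 0.199). Leaving out each library in turn kept this value between -2.55 and -2.09. Against the floor of 3 reads per library, the level in KO was at least 57.7-fold lower than in WT and at least 11.7-fold lower than in PT2385. In bulk RNA, fewer cells that make a transcript and less transcript per cell cannot be told apart.

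CXCR4 (ENSG00000121966, chromosome 2, 136114349 to 136119177, minus strand), the receptor that signals upon CXCL12 binding, was scarce in WT and at or near 0 elsewhere. Reads numbered 19, 14 and 7 in WT, 1, 0 and 0 in PT2385, and 0, 0 and 0 in KO. Each WT library therefore lay above every library of the other groups, although by as few as 7 reads against 1. The level in WT was 1.11 ± 0.507 CPM (SD, n = 3). With PT2385 it was 44.5-fold lower, with an exact 95% binomial interval from 7.53 to 1800 that covers counting error only, and in KO it was at least 5.15-fold lower than in WT. No fold is given between KO and PT2385, where both groups were at or under the floor. The gene did not pass the filter on low counts. A fit of all genes with at least 1 read would hold it only or almost only through WT, where it is high, so no test is given.

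CXCL12 (ENSG00000107562, chromosome 10, 44370165 to 44386493, minus strand), the ligand of both receptors, was practically absent from every group. It had 1, 0 and 0 reads in WT, 0, 2 and 2 in PT2385 and 1, 0 and 0 in KO, and no library exceeded the floor of 3 reads. A difference in CXCL12 between the groups was not detectable at this depth. The cells thus carried transcripts of ACKR3 and, sparsely, of CXCR4, with nearly none of the ligand.

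**Figure D1:**
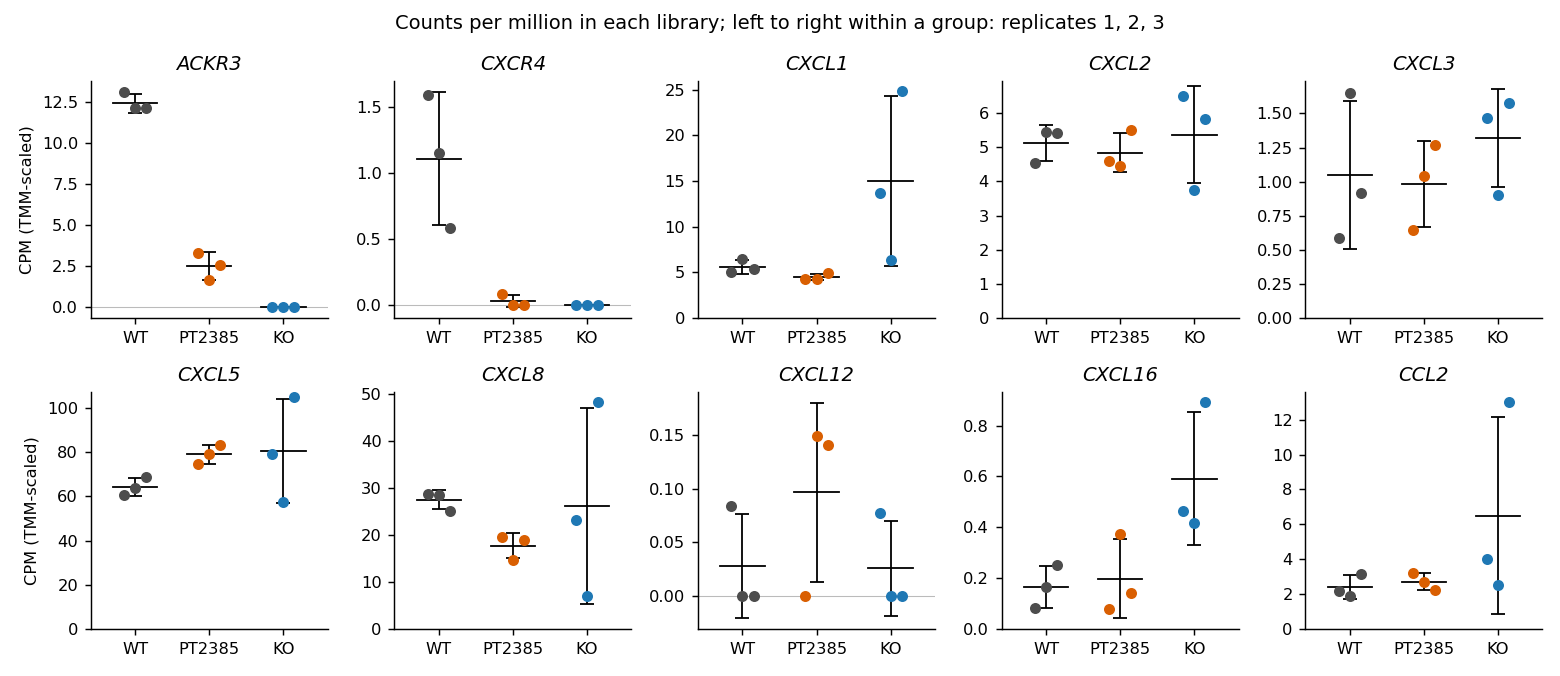
CPM in each library for the 10 genes, with WT, PT2385 and KO along the x axis and points from left to right for replicates 1, 2 and 3. Horizontal lines are the means and bars the SD (n = 3). ACKR3 stepped down from 12.4 CPM in WT to 2.51 in PT2385 and 0 in KO, while CXCL1, CXCL8 and CCL2 were widely spread among the KO replicates.

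The neutrophil-attracting ligands did not move as a group with PT2385. CXCL8 fell, CXCL5 rose slightly, and CXCL1, CXCL2 and CXCL3 did not pass the threshold. CXCL8 (ENSG00000169429, chromosome 4, 73740519 to 73743716, plus strand), interleukin 8, had 343, 347 and 302 reads in WT and 243, 197 and 268 in PT2385, with no overlap between the groups. The level went from 27.5 ± 2.04 to 17.7 ± 2.64 CPM (SD, n = 3), equal to a log2 fold change of -0.64 (SE 0.117). In a single model of all 9 libraries the log2 fold change was again -0.64 but did not pass the threshold.

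CXCL5 (ENSG00000163735, chromosome 4, 73995642 to 73998677, minus strand), also a ligand of CXCR2, changed the other way. It had 721, 773 and 824 reads in WT and 927, 1065 and 1184 in PT2385, again without overlap. The level was 64.2 ± 4.09 CPM in WT and 79.0 ± 4.44 CPM in PT2385, a log2 fold change of 0.29 (SE 0.0723). This change was small and its call fragile. It was lost without WT replicate 1 (0.25), without WT replicate 2 (0.29), without PT2385 replicate 2 (0.29) and in the model of all 9 libraries (0.30).

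CXCL1, CXCL2 and CXCL3 are closely related genes, and 5.33%, 10.1% and 5.26% of the 50-base stretches of their transcripts occur in one of the other two, so that a few reads could be assigned to the wrong copy. CXCL1 (ENSG00000163739, chromosome 4, 73869393 to 73871308, plus strand) had 60, 79 and 65 reads in WT and 54, 57 and 70 in PT2385. The levels were 5.65 ± 0.761 and 4.50 ± 0.371 CPM, with all PT2385 libraries below all WT libraries in CPM, and the log2 fold change of -0.33 (SE 0.170) did not pass the threshold. CXCL2 (ENSG00000081041, chromosome 4, 74097040 to 74099196, minus strand) had 54, 66 and 65 reads in WT, 57, 60 and 78 in PT2385 and 84, 54 and 85 in KO. Its level was nearly level across the groups, at 5.12 ± 0.514, 4.84 ± 0.562 and 5.36 ± 1.42 CPM, and no comparison passed the threshold. CXCL3 (ENSG00000163734, chromosome 4, 74036589 to 74038807, minus strand) was the scarcest of the 3, with 7, 20 and 11 reads in WT, 8, 14 and 18 in PT2385 and 19, 13 and 23 in KO. At 1.05 ± 0.542, 0.984 ± 0.316 and 1.32 ± 0.359 CPM its groups overlapped, and differences of the size of its SE (0.416 with PT2385, 0.395 in KO, on the log2 scale) could not be resolved.

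In KO, CXCL1 rose while the remaining neutrophil attractants did not pass the threshold. CXCL1 reads numbered 178, 92 and 364 in KO, and its level of 15.0 ± 9.34 CPM (SD, n = 3) gave a log2 fold change of 1.42 (SE 0.390) against WT and 1.74 (SE 0.399) against PT2385. KO replicate 2, at 6.41 CPM, was close to the highest WT replicate, at 6.50 CPM, so KO and WT overlapped. The call against WT was lost without WT replicate 1 (1.35) or WT replicate 3 (1.39). Without KO replicate 3 the log2 fold change was 0.83 against WT and 1.14 against PT2385, and both calls held.

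CXCL8 in KO had 301, 101 and 705 reads, or 23.2, 7.04 and 48.3 CPM, which spans the WT and PT2385 levels and exceeds both at either end. Its mean of 26.2 ± 20.8 CPM was close to that of WT, with a log2 fold change of -0.05 (SE 0.448) that rested on which replicate was included. Without KO replicate 3 it was -0.87 and passed the threshold, and without KO replicate 2 it was 0.40. Against PT2385 it was 0.57 (SE 0.476) and did not pass, but without KO replicate 2 it was 1.02 and passed, as did the value of 0.57 with no filter on low counts. CXCL5 in KO had 1026, 827 and 1529 reads, or 80.5 ± 23.6 CPM, with a log2 fold change of 0.34 (SE 0.166) against WT that did not pass. It passed without KO replicate 2 (0.53) and with no filter (0.33). Against PT2385 the difference was 0.03 (SE 0.169).

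CCL2 (ENSG00000108691, chromosome 17, 34255274 to 34257208, plus strand), the monocyte attractant, had 26, 23 and 38 reads in WT, 40, 36 and 32 in PT2385 and 52, 36 and 189 in KO. A single library, KO replicate 3 at 13.0 CPM, set the KO mean of 6.49 ± 5.65 CPM apart from 2.41 ± 0.667 CPM in WT and 2.71 ± 0.481 CPM in PT2385. The log2 fold change of KO against WT was 1.45 (SE 0.533) and did not pass the threshold. Without KO replicate 3 it was 0.43. It passed without KO replicate 1 (1.69) or 2 (1.84), in the model of all 9 libraries (1.43), with replicate as a block (1.32) and with no filter on low counts (1.45). Against PT2385 the KO value was 1.27 (SE 0.516), not past the threshold, with 0.26 without KO replicate 3 and a call at 1.66 without KO replicate 2 and at 1.27 with no filter. PT2385 against WT gave 0.16 (SE 0.256).

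CXCL16 (ENSG00000161921, chromosome 17, 4733533 to 4739928, minus strand) was close to the floor, with 1, 2 and 3 reads in WT, 1, 5 and 2 in PT2385 and 6, 6 and 13 in KO. All KO libraries lay above all others, but the gene did not pass the filter on low counts. Its exons overlap those of MED11 and ZMYND15 on the opposite strand by 76 and 96 bases, and since the strandedness of counting is not stated in the sources used here, some of these few reads may belong to either neighbour.

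**Figure D2:**
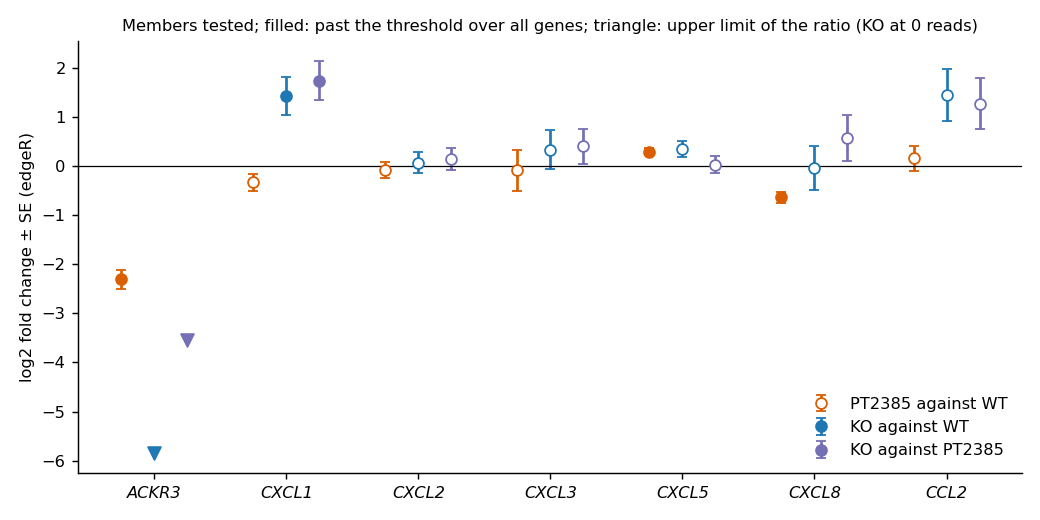
Log2 fold changes with their SE (edgeR) for the 7 of the 10 genes that passed the filter on low counts, in the 3 comparisons between groups, 3 against 3 libraries. Filled circles passed the threshold over all genes, and triangles give the upper limit of the ACKR3 ratio in KO, where no read was counted. ACKR3 was lower in all 3 comparisons, CXCL8 was lower and CXCL5 higher with PT2385, and CXCL1, CXCL8 and CCL2 had SE of 0.390 to 0.533 in the comparisons with KO.

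In the fits over all genes the threshold was an adjusted p under 0.05 in edgeR's quasi-likelihood test. With PT2385, 3 of the 7 genes that passed the filter were past it, 1 higher and 2 lower, where 7.7% of all 15089 tested genes were, 3.08% higher and 4.62% lower. With replicate as a block the total rose from 1162 to 2305 genes, and the same 3 of the 7 were past the threshold. In KO against WT, 2 of the 7 were past it, CXCL1 higher and ACKR3 lower, beside 30.1% of all 15192 tested genes, 14.7% higher and 15.4% lower. In KO against PT2385 these were again CXCL1 and ACKR3, beside 18.8% of 15402 genes, 8.47% higher and 10.3% lower. ACKR3, with no read in KO, passed the filter in both KO comparisons only through the other group, where it is high. The median log2 fold change of the 7 was -0.09, 0.33 and 0.40 in the 3 comparisons, where the median of all tested genes was 0. WT serves in 2 of the comparisons and each of the other groups in 2, so they are not independent of each other, and the list was chosen knowing these contrasts, so nothing is read from the counts.

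To compare levels between genes, CPM were divided by exon length in kb (RPKM). In WT the order was CXCL5 at 26.4 ± 1.68, CXCL8 at 10.6 ± 0.787, ACKR3 at 6.0 ± 0.281, CXCL1 at 4.15 ± 0.558 and CXCL2 at 3.67 ± 0.367 (SD, n = 3), where the last pair overlapped. CCL2 followed at 1.25 ± 0.344, then CXCL3 at 0.473 ± 0.244 and CXCR4 at 0.382 ± 0.175, which overlapped, and CXCL16 at 0.0595 and CXCL12 at 0.00455. In WT the scavenging receptor thus stood above the signalling receptor in every library. With PT2385 ACKR3 dropped to 1.21 ± 0.402 and came to lie in the range of CCL2 (1.40 ± 0.249), below CXCL1 and CXCL2. In KO CXCL5 remained the highest at 33.1 ± 9.69, whereas CXCL1 (11.0 ± 6.85), CXCL8 (10.1 ± 8.04), CXCL2 (3.83 ± 1.01) and CCL2 (3.35 ± 2.92) overlapped in sequence and could not be ordered.

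**Figure D3:**
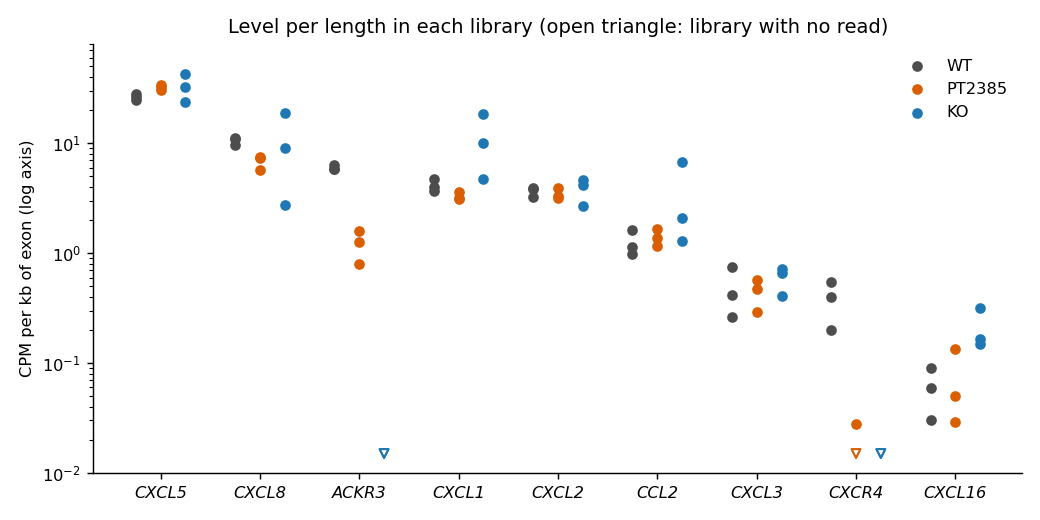
CPM divided by exon length in kb (RPKM) in each library on a log axis, for 9 of the 10 genes in their WT order, with WT, PT2385 and KO side by side. Open triangles mark libraries with no read, and CXCL12, which had at most 2 reads per library, is not drawn. CXCL5 was the highest in every group, and ACKR3 fell from 6.0 in WT to 1.21 in PT2385.

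The spread among KO replicates was a feature of several ligands. The ratio of the highest to the lowest KO replicate was 6.87 for CXCL8, 5.16 for CCL2, 3.89 for CXCL1, 1.82 for CXCL5 and 1.72 for CXCL2, where over the 13503 genes with a mean of at least 20 reads in KO its median was 1.18, its 95th percentile 1.84 and its 99th percentile 2.58. In WT the median ratio was 1.17 for the 6 of the 10 genes that reached this mean and 1.15 for all genes. In PT2385 these were 1.28 and 1.17. The order was KO replicate 3, then 1, then 2 in 4 of the 5 genes, CXCL2 being the exception, and in 21.0% of all genes. Library totals of KO replicates 1, 2 and 3 were 12893484, 14430108 and 14730081 reads, which is another order. What set KO replicates apart was not tested.

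Other cytokine genes and NF-κB targets often had the same order among KO replicates, but it was not confined to them. Of 8 inflammatory cytokines and NF-κB targets with enough reads 7 ran in the order 3, 1, 2, as did 11 of 19 genes of the NF-κB pathway (57.9%). So did 9 of 20 genes of receptor signalling and trafficking (45.0%), where 21.0% of all genes did. TRAF1 of the NF-κB pathway, with a ratio of 2.47, did not follow it. TNF, chosen here because its profile resembled that of CXCL8, had a ratio of 5.46 between KO replicates. The ratio was 2.90 for TNFAIP3, an NF-κB target that restrains the pathway. CSF2, the granulocyte-macrophage growth factor, had 62, 17 and 110 reads in KO against 64, 54 and 52 in WT. For IL6 these were 206, 117 and 289 against 134, 168 and 138. CSF2, IL6 and ICAM1 were picked after their values were seen. In KO against WT none of TNF, TNFAIP3, CSF2, IL6 and ICAM1 passed the threshold, with log2 fold changes of -0.38 (SE 0.407), -0.05 (SE 0.269), -0.05 (SE 0.442), 0.27 (SE 0.256) and -0.08 (SE 0.158).

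**Figure D4:**
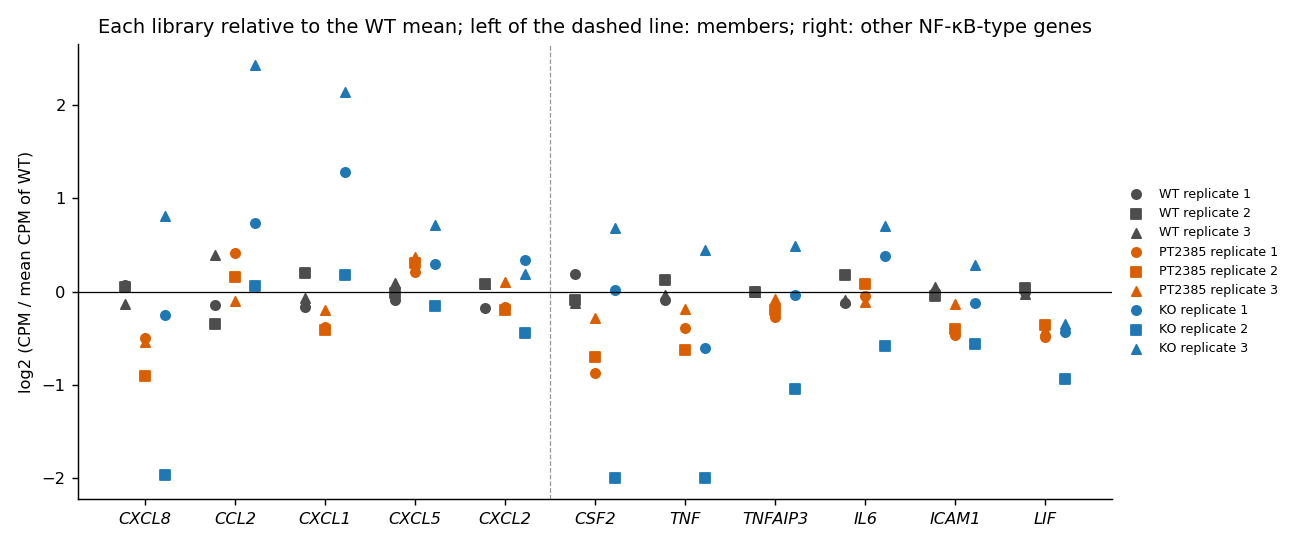
Log2 ratio of each library's CPM to the WT mean for 5 ligands, left of the dashed line, and 6 other NF-κB-related genes, right of it. Colour marks the group and shape the replicate number. KO replicate 3 was the highest and KO replicate 2 the lowest KO library in 10 of the 11 genes, of which TNF and TNFAIP3 were chosen for their likeness to CXCL8 and CSF2, IL6 and ICAM1 after their values were seen, so the count describes the plot only.

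Across all 9 libraries the profiles most like that of ACKR3, by root mean square difference of log2 CPM relative to WT among 9900 genes with at least 100 reads in WT on average, were those of C1QL1 (0.614), PTGES (0.635), EGLN3 (0.679), PRIMA1 (0.747) and SEMA6A (0.824). All 5 stood in the order WT, PT2385, KO. EGLN3, the prolyl hydroxylase that HIF induces, had 130, 14.7 and 2.41 CPM in these groups. C1QL1, a C1q-like secreted protein, had 147, 43.7 and 2.97 CPM. PTGES, which makes prostaglandin E2, had 21.0, 2.21 and 0.138 CPM. PTGES and EGLN3 were further below WT with PT2385 (-3.13 and -3.14 on the log2 scale) than ACKR3 (-2.29), and SEMA6A, a transmembrane semaphorin, was less far below (-1.48). ACKR3 had no read in KO, so its value there (-6.36) was set by the prior count of 2 added before the log2. The differences and their ranking depend on that prior count, and PTGES and PRIMA1 (0.0457 CPM in KO) also had few reads there. These values share the same libraries and are a description of likeness only.

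Among the profiles most like that of CXCL8 were those of TNF (0.238), TNFAIP3 (0.44), ATF3 (0.482) and ABCC9 (0.489). These 4 were below WT on average with PT2385, at -0.39, -0.18, -0.72 and -0.35 on the log2 scale, and all had their lowest KO value in replicate 2. CXCL8 has both traits, and the genes were chosen for likeness to it over the same libraries. The shared traits therefore follow from the choice and are a description only. ATF3 is a stress-induced transcription factor and ABCC9 a subunit of potassium channels.

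Most other genes of the chemokine system did not pass the filter on low counts. Of 36 other chemokine ligands 2 passed the filter, CX3CL1 and CCL28, and of 21 other chemokine receptors none did in PT2385 against WT and 1, CCRL2, did in the comparisons with KO. CXCR1, CXCR2 and CCR2, the receptors of the neutrophil attractants and of CCL2, had no read in any library. CX3CL1, the membrane-bound ligand of CX3CR1, rose with PT2385 from 10.4 ± 0.916 to 21.4 ± 5.87 CPM (log2 fold change 1.03, SE 0.176, adjusted p = 0.0031, edgeR) and had 11.7 ± 1.47 CPM in KO. CCRL2, an atypical receptor that presents chemerin, had 1, 1 and 9 reads in WT, 8, 8 and 8 in PT2385 and 35, 38 and 36 in KO. All KO libraries lay above all others, but the gene passed the filter only through KO, where it is high, so its log2 fold changes against WT (3.07, SE 0.5) and PT2385 (2.10, SE 0.271) are given without a test. Without WT replicate 3 the first value was 4.83.

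Among 4 measured further ligands and co-receptors of ACKR3 and CXCR4, ADM was past the threshold with PT2385, and ADM and CD74 were in KO. Among all tested genes 7.7% were past it with PT2385 and 30.1% in KO. ADM, the precursor of adrenomedullin, which ACKR3 also takes up, fell from 64.0 ± 6.65 CPM to 9.13 ± 0.599 with PT2385 and 7.35 ± 0.785 in KO (log2 fold changes of -2.81, SE 0.104, and -3.11, SE 0.112, with adjusted p of 5.72e-09 and 8.3e-09 in edgeR). Its groups did not overlap, but KO against PT2385 (-0.31, SE 0.143, adjusted p = 0.164, edgeR) did not pass the threshold. In that comparison the groups did not overlap in 35.1% of all tested genes. The 2 low groups of ADM were closer together than those of ACKR3. CD74, the receptor of MIF that can pair with CXCR4, rose in KO (0.82, SE 0.138, adjusted p = 0.001). With PT2385 it was at 0.52 (SE 0.158) and past the threshold with replicate as a block (0.51, adjusted p = 0.0325). MIF, a ligand of CXCR4 and CD74, had 9.64 ± 0.804, 9.71 ± 1.66 and 10.4 ± 2.09 CPM in the 3 groups and did not pass. Of its 730 exonic bases 687 are shared with MIF-AS1 on the opposite strand and 357 with a gene on the same strand, so its counts are uncertain.

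Of 22 measured genes of receptor signalling and trafficking 3 rose and 2 fell with PT2385 (5 rose with replicate as a block), beside 3.08% higher and 4.62% lower among all tested genes. In KO 8 rose and 2 fell, beside 14.7% and 15.4%. RGS3, which switches off Gi and Gq signals, rose in both, from 29.6 ± 0.611 CPM to 47.6 ± 4.40 (log2 fold change 0.68, SE 0.0838, adjusted p = 0.000256) and 66.6 ± 3.68 (1.18, SE 0.0737, adjusted p = 5.82e-07). GRK5, a kinase that desensitises such receptors, and RGS19, a further regulator of Gi proteins, rose in KO by 1.01 (SE 0.158, adjusted p = 0.000632) and 0.60 (SE 0.117, adjusted p = 0.00251). RGS2 was past the threshold with PT2385 (0.83, SE 0.230, adjusted p = 0.0483), but the call was lost in 5 of the 6 fits that left out a library and in DESeq2.

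None of the 8 measured genes of chemokine processing passed the threshold with PT2385 in edgeR, and 1 had an unadjusted p under 0.05. With replicate as a block 2 were higher, MMP13 among them (0.45, adjusted p = 0.0232). In KO 2 rose and 4 fell, beside 14.7% higher and 15.4% lower among all tested genes. MMP13, a collagenase, was lower in KO by 2.79 on the log2 scale (SE 0.386), with 130, 77 and 70 reads in WT and 12, 27 and 7 in KO. It passed the filter on low counts there only through WT, where it is high, so this value is given without a test. ADAM10, a protease that sheds CXCL16 and CX3CL1 from the membrane, fell by 0.60 (SE 0.0585, adjusted p = 1.98e-05). MMP2, which can inactivate CXCL12, and DPP4, which trims its amino terminus, rose by 1.03 (SE 0.144, adjusted p = 0.000288) and 0.44 (SE 0.0850, adjusted p = 0.00262).

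Heparan sulfate proteoglycans hold chemokines at the cell surface. Of 7 measured 2 rose with PT2385 (4 with replicate as a block), beside 3.08% of all tested genes. In KO 4 rose and 1 fell, beside 14.7% higher and 15.4% lower. SDC2 rose with PT2385 (log2 fold change 0.43, SE 0.0798, adjusted p = 0.00595) and in KO (0.78, SE 0.122, adjusted p = 0.000612), as did GPC6 (0.45, SE 0.0898, adjusted p = 0.00896, and 0.57, SE 0.102, adjusted p = 0.00152). SDC2 with PT2385 was not called in the model of all 9 libraries, nor was GPC6 without WT replicate 2. SDC3 rose (0.64) and SDC1, the main epithelial syndecan, fell (-0.40) in KO, with adjusted p of 0.000166 and 0.00246.

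Of the 19 genes of the NF-κB pathway, all measured, 1 rose and 3 fell with PT2385 (2 rose and 4 fell with replicate as a block), and 2 rose and 4 fell in KO, with a median log2 fold change of -0.09 and -0.08. Among all tested genes 7.7% were past the threshold with PT2385 and 30.1% in KO, so the 6 of 19 in KO were near the share of all genes. CYLD, a deubiquitinase that restrains the pathway, fell in both (-0.40, SE 0.0693, adjusted p = 0.00334, and -0.42, SE 0.0691, adjusted p = 0.000876). BIRC3, an apoptosis inhibitor, and NFKB2, a subunit of the factor itself, fell in KO by 0.66 (SE 0.108, adjusted p = 0.000837) and 0.48 (SE 0.128, adjusted p = 0.0152), the latter not without WT replicate 2. BIRC3 also fell with PT2385 with replicate as a block (-0.28, adjusted p = 0.00316). TNFAIP2, a TNF-induced gene, rose in KO (0.52, SE 0.0632, adjusted p = 0.000102) and by 0.21 (SE 0.0546, adjusted p = 0.0358) with PT2385, where the call was lost without any of the WT replicates and without PT2385 replicate 2.

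Of 9 measured inflammatory cytokines and NF-κB targets 2 rose and 2 fell in each comparison with WT. With replicate as a block 3 rose with PT2385. Among all tested genes 7.7% were past the threshold with PT2385 and 30.1% in KO. IL18, which promotes interferon-γ production, rose from 2.72 ± 0.251 CPM to 10.4 ± 1.96 with PT2385 (log2 fold change 1.94, SE 0.189, adjusted p = 3.56e-05) and 13.4 ± 2.93 in KO (2.31, SE 0.198, adjusted p = 7.98e-06). CSF1, the macrophage growth factor, rose by 0.31 (SE 0.0558, adjusted p = 0.00447) and 0.40 (SE 0.0658, adjusted p = 0.00089). LIF fell by 0.42 (SE 0.0597, adjusted p = 0.000763) and 0.54 (SE 0.122, adjusted p = 0.00629). IL11, a cytokine of the IL6 family, differed between the treatments, with 61, 93 and 41 reads in WT, 135, 134 and 91 in PT2385 and 15, 7 and 15 in KO. It was lower in KO than in WT (-2.59, SE 0.368) and than in PT2385 (-3.34, SE 0.312). In both comparisons it passed the filter on low counts only through the other group, where it is high. These values are therefore given without a test. With PT2385 against WT it was at 0.74 (SE 0.266) and past the threshold with replicate as a block (0.75, adjusted p = 0.00516). Exons of LIF, CYLD, GPC6, DPP4, ADAM10, TNFAIP3, IL6 and ICAM1 overlap genes on the opposite strand, those of MMP2 a gene on the same strand and those of CDH6 a gene on each strand, so their counts may hold reads of these neighbours.

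**Figure D5:**
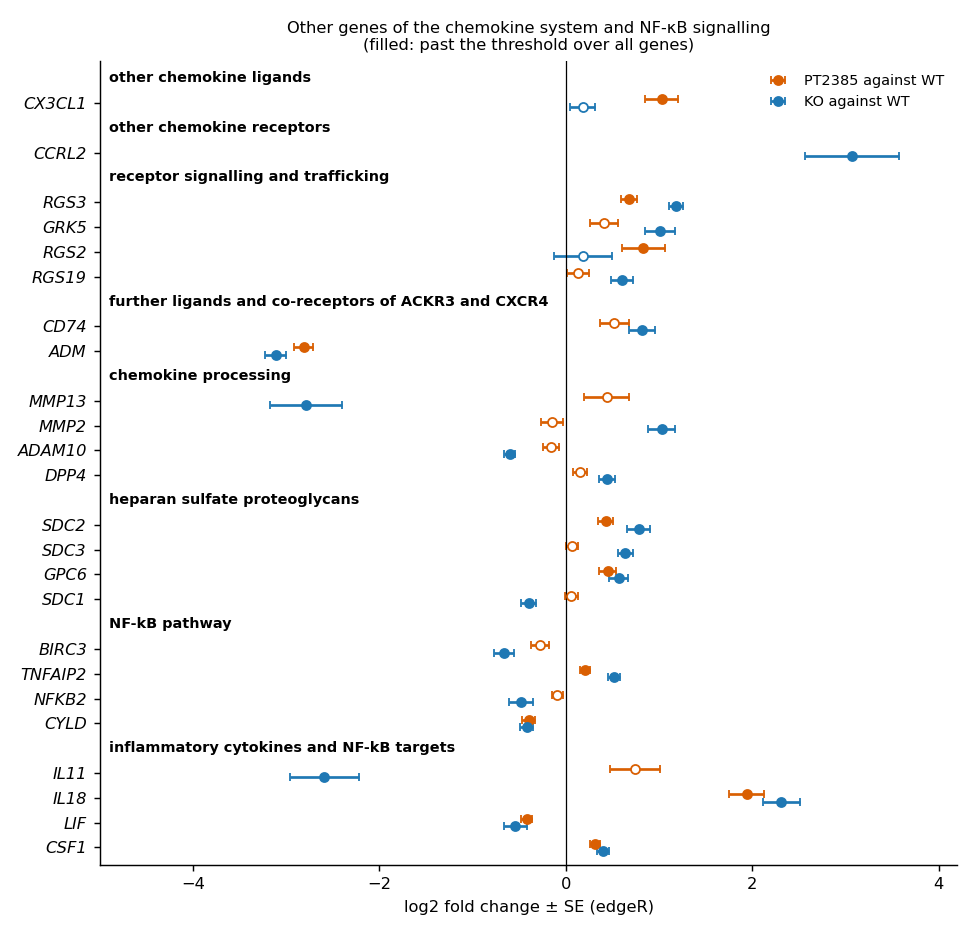
Log2 fold changes with their SE (edgeR) for the genes of each list named by rule, PT2385 against WT in orange and KO against WT in blue, 3 against 3 libraries. Filled circles passed the threshold over all genes, where CCRL2 passed the filter on low counts only through KO. In KO against WT, MMP13 and IL11 passed that filter only through WT. ADM fell and IL18 and RGS3 rose in both comparisons, whereas MMP13 and IL11 fell in KO and CX3CL1 rose with PT2385.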

How the data were processed

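Total RNA of 786-0 cells was sequenced in 9 libraries, 3 each of WT, PT2385 and KO. According to the study's methods and the labels, the authors checked reads with FastQC, trimmed them with cutadapt, aligned them to GRCh38 with STAR and assigned them to genes with featureCounts. The annotation release and the strandedness of counting are not given in the sources used here. The deposited values are raw counts of reads per gene without normalization. GENCODE gave symbols and positions for 58207 of the 58735 genes.

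Each pair of groups was fitted on its own 6 libraries with edgeR 4.0.16 in R 4.3.3 (TMM scaling with factors from 0.988 to 1.02, filterByExpr with its minimum of 10 counts, quasi-likelihood F test, Benjamini-Hochberg adjustment over all tested genes, threshold 0.05), after a test on simulated counts. The study's methods used DESeq2, here version 1.42.0 as an alternative. The SE of a log2 fold change was derived from the test, as its absolute value divided by the square root of the quasi-likelihood F statistic. Levels (CPM) are counts per 1000000 of the TMM-scaled total. A level of 0 was set against a floor of 3 counts per library. With 3 against 3 libraries an exact two-sided permutation test cannot give a p below 0.1, so none was run.

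The 10 genes, the other lists and the tests were chosen with earlier results of these data known, so no p is given for the 10. In each other list the genes named are those past the threshold in PT2385 or KO against WT, or, where over 4 were, the 4 with the largest log2 fold change and a mean of at least 20 counts in that comparison. EPAS1 and the 5 genes most like ACKR3 and CXCL8 were also named, and any others were picked after their values were seen. Of the listed genes 1, SOD2, had no match. A few of the genes these rules name are not reported here.

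Replicate numbers come from the sample titles. Deviations of same-numbered libraries from their group means correlated at 0.104 to 0.404 between PT2385 and WT, over 0.1 in 3 of 3 pairs, so the numbers were taken to pair these libraries. The values given for all comparisons are from the fits without a block, so those for PT2385 against WT do not use this pairing. For that comparison the blocked value is added where it changed a call or a count. Between KO and WT (0.033 to 0.419) and between KO and PT2385 (0.062 to 0.374) 2 of 3 pairs exceeded 0.1, and the numbers were not taken as pairs. Alternatives were DESeq2, scaling by RLE, by upper quartiles or by library totals alone, no filter, at least 10 counts in every library, replicate as a block, a joint model of all 9 libraries, a threshold of 0.01, and leaving out each library.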

Additional observations from a re-analysis of the deposited data

Results flagged for a closer look

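GRK6, a kinase that desensitises G protein-coupled receptors, moved in opposite directions with the antagonist and in the knockout. It was flagged because PT2385 and KO differed directly, by a log2 fold change of 0.62 (SE 0.0773, adjusted p = 0.00029, edgeR). The level was 39.2 ± 3.29 CPM in WT, 29.6 ± 0.856 CPM in PT2385 and 45.8 ± 0.646 CPM in KO (SD, n = 3), and the 3 groups did not overlap. Against WT the log2 fold change was -0.41 with PT2385 (SE 0.085, adjusted p = 0.0119) and 0.23 in KO (SE 0.0788, adjusted p = 0.0441). The direct difference kept its call under all 15 alternatives, at 0.61 to 0.65 when single libraries were left out, whereas the rise in KO lost its call under 9 of them and the fall with PT2385 under 4. Exons of GRK6 overlap those of F12 and PRR7-AS1 on the opposite strand by 399 and 99 bases.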

How the results depend on the processing

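Of 289 alternative values for single genes among the 7 tested, 258 kept their direction and their side of the threshold, 7 lost a call, 12 gained one and 12 turned in sign. The threshold of 0.01 is not among the 289, and most of them are of genes without a call in the main fit. The fall of ACKR3 with PT2385 kept its call in every fit. The list was chosen knowing this fold change and the fits share the same libraries, so this is a description only. In the KO comparisons the gene had no read in KO and passed the filter only through the other group, where it is high. Its calls there are therefore no sign of robustness either. At an adjusted p under 0.01 the number of genes past the threshold was 516 for PT2385 against WT, 2788 for KO against WT and 1657 for KO against PT2385. Of the 7 genes, 2 remained with PT2385, ACKR3 and CXCL8, so that CXCL5 lost its call. In both KO comparisons 1 of the 7 remained, ACKR3, so that CXCL1 lost its calls. Leaving out 1 library gave 574 to 1451, 3344 to 5094 and 1836 to 3190 genes in the 3 comparisons, and 2 to 4, 1 to 5 and 2 to 4 of the 10 genes. In the model of all 9 libraries 1 of the 10 was past the threshold with PT2385, ACKR3. Without a filter 5 were in KO against WT and 4 in KO against PT2385, and with at least 10 counts in every library, which removes ACKR3, 1 was in each. Some of the counts without a filter or without 1 library include CXCR4, which enters only or almost only through WT, where it is high. With the replicate block 2305 genes were past the threshold with PT2385, 5501 in KO against WT and 3783 in KO against PT2385. The block turned CXCL5 in KO against PT2385 to -0.01 and gave CCL2 a call in KO against WT (1.32), without changing other calls among the 7.

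Signs turned when single libraries were left out, all near 0 or in genes with a wide SE, for CXCL3 with PT2385 (-0.37 to 0.4), for CXCL2 (-0.08 to 0.28) and CXCL8 (-0.87 to 0.4) in KO against WT, and for CXCL2 (-0.02 to 0.34), CXCL5 (-0.21 to 0.22) and CXCL8 (-0.24 to 1.02) in KO against PT2385. The cause of these changes was not tested. Of 49 calls of the other named genes and GRK6, 38 held under every alternative that tested them, 11 were lost under at least 1, and none turned in sign. Where a fit left 2 libraries in a group, their spread was pooled with that of the other group. Depth limits CXCR4, CXCL12 and CXCL16, whose counts were at most 19 per library.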
